A study of Mus musculus with 18 samples.

Results

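The fragments described here derive from the 4 cytosolic tRNAs whose wobble guanosine is replaced by queuosine, those of histidine, aspartate, asparagine and tyrosine. They are 4 of the 1234 RNAs of the deposited table and 4 of its 51 cytosolic tRNA anticodons, listed as mature-tRNA-His-GTG, mature-tRNA-Asp-GTC, mature-tRNA-Asn-GTT and mature-tRNA-Tyr-GTA. The rule that chose them was this modification and not their values, but it was set with earlier results of these data known. Liver small RNA was sequenced from 4 male C57BL/6 mice given a diet high in cholesterol (HCD, 0.5%, mice 15 to 18) and 5 given one low in it (LCD, 0.02%, mice 1 to 5). Both diets share a semi-synthetic low-fat base, and all mice were wild-type and 8 weeks old at the start. The sources disagree on the feeding time, which is 4 weeks by the design text, 9 weeks by the growth protocol and 8 weeks by the label for time. RNA of 15 to 50 nt from each mouse went into 2 libraries, 1 for PANDORA-seq and 1 for traditional-seq, 18 in all. In PANDORA-seq the kinase T4PNK first restores fragment ends so that adapters can be ligated, and the demethylase AlkB then strips methylations that block the reverse transcriptase. In traditional-seq the RNA is left untreated.

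Queuosine is a bulky derivative of guanosine that the transglycosylase QTRT1-QTRT2 places in the anticodon by exchanging the base for queuine, which mammals take from food and gut microbes. In vertebrates the queuosine of tRNA-Tyr carries a galactose and that of tRNA-Asp a mannose, while those of tRNA-His and tRNA-Asn carry no sugar. Queuosine is known to tune decoding of the codons that end in U or C, and in mammalian cells it has been linked to protection of the anticodon loop from cleavage. Fragments of tRNAs, called tsRNAs, arise from cuts by ribonucleases such as angiogenin. Each value here sums all fragments of 1 anticodon over all positions and gene copies, in RPM, the reads of the RNA scaled to a common read total per library. The modification itself was not measured, and in bulk liver a smaller number of cells of a type and less RNA per cell cannot be told apart.

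The 4 tRNAs are encoded by many gene copies. In the RefSeq annotation of GRCm38.p6, tRNA-His-GTG has 10 genes on 3 chromosomes, 6 of them between positions 96410069 and 96500437 of chromosome 3. Within chromosome 3 the same cluster holds 6 of the 13 tRNA-Asn-GTT genes, between positions 96322074 and 96497854. tRNA-Asp-GTC has 16 genes on 6 chromosomes, with 5 between positions 171037029 and 171102442 of chromosome 1. tRNA-Tyr-GTA has 10 genes on 4 chromosomes, 6 of them between positions 23425646 and 23467165 of chromosome 13. The genes of the first 3 span 72 bp (His, Asp) or 74 bp (Asn), whereas those of tRNA-Tyr-GTA span 86 to 93 bp and hold an intron that is spliced out. Reads of copies with equal sequence cannot be told apart.

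The same 4 anticodons also exist in mitochondria, where mammalian tRNAs carry queuosine too, and these separate genes are used below as a comparison set. Their DNA sequences from GENCODE M21 on GRCm38 are shown to place the modified base, 5′ to 3′ on the strand of the gene, with the anticodon in capitals. The first capital G is the position that becomes queuosine. The genes lie at chrM:11546-11612 on the plus strand (mt-Th), chrM:6942-7011 on the plus strand (mt-Td), chrM:5089-5159 on the minus strand (mt-Tn) and chrM:5260-5326 on the minus strand (mt-Ty).
mt-Th (His): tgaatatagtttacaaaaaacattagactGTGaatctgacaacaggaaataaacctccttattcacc
mt-Td (Asp): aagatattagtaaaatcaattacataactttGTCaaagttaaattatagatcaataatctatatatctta
mt-Tn (Asn): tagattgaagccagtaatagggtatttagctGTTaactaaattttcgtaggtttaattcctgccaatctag
mt-Ty (Tyr): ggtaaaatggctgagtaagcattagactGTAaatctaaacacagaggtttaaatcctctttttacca

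Read totals, inferred from the value of 1 read, were 1934330 to 25488322 per library, and the listed RNAs held 777471 to 958480 RPM. The liver label was checked by miR-122, the dominant hepatocyte miRNA, which took 15.3% to 60.05% of miRNA reads in the PANDORA-seq libraries and 26.3% to 64.4% in the traditional-seq libraries. The make-up of the libraries differed by diet. In PANDORA-seq, miRNAs took 7.56% to 15.8% of listed reads in HCD-fed mice and 2.04% to 5.58% in LCD-fed mice, and cytosolic tRNA fragments 11.9% to 18.2% in HCD-fed mice and 15.6% to 35.7% in LCD-fed mice. In traditional-seq, cytosolic tRNA fragments took 0.647% to 2.33% in HCD-fed mice and 6.24% to 8.13% in LCD-fed mice, with no overlap. Of the non-parenchymal marker miRNAs in PANDORA-seq, miR-126a of endothelium took 0.0102% to 0.0656% of miRNA reads in HCD-fed mice and 0.0384% to 0.147% in LCD-fed mice. The 2 stellate and smooth muscle markers took 0.247% to 1.01% in HCD-fed mice and 0.489% to 2.17% in LCD-fed mice. The 7 blood and immune markers took 0.0102% to 0.0595% in HCD-fed mice, with 1 of 7 at 0 in all of them, and 0.0193% to 0.0715% in LCD-fed mice, with 2 of 7 at 0. The part of these differences in the results by diet was not tested.

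The 4 tsRNAs covered a wide range of levels, and their order differed between methods and diets. tsRNA-His-GTG was the most abundant of them in HCD-fed mice by PANDORA-seq, where it ranked 2nd among the 51 anticodons in all 4 libraries. It averaged 25956 ± 5085 RPM there (SD, n = 4), against 10056 ± 4256 RPM in LCD-fed mice (SD, n = 5). In the LCD-fed mice tsRNA-His-GTG and tsRNA-Asp-GTC could not be ordered, since the log2 ratio of the 2 lay between -1.41 and 1.33. tsRNA-Tyr-GTA came next and tsRNA-Asn-GTT last in every PANDORA-seq library. In traditional-seq of HCD-fed mice, tsRNA-Tyr-GTA and tsRNA-His-GTG could not be ordered (log2 ratio of His to Tyr between -1.55 and 0.25). In traditional-seq of LCD-fed mice, tsRNA-His-GTG was first in every library, and tsRNA-Asp-GTC and tsRNA-Tyr-GTA could not be ordered (log2 ratio of Asp to Tyr between -0.52 and 0.54). tsRNA-Asn-GTT was last in all 18 libraries, with 47 to 2369 inferred reads per library.

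**Figure D1:**
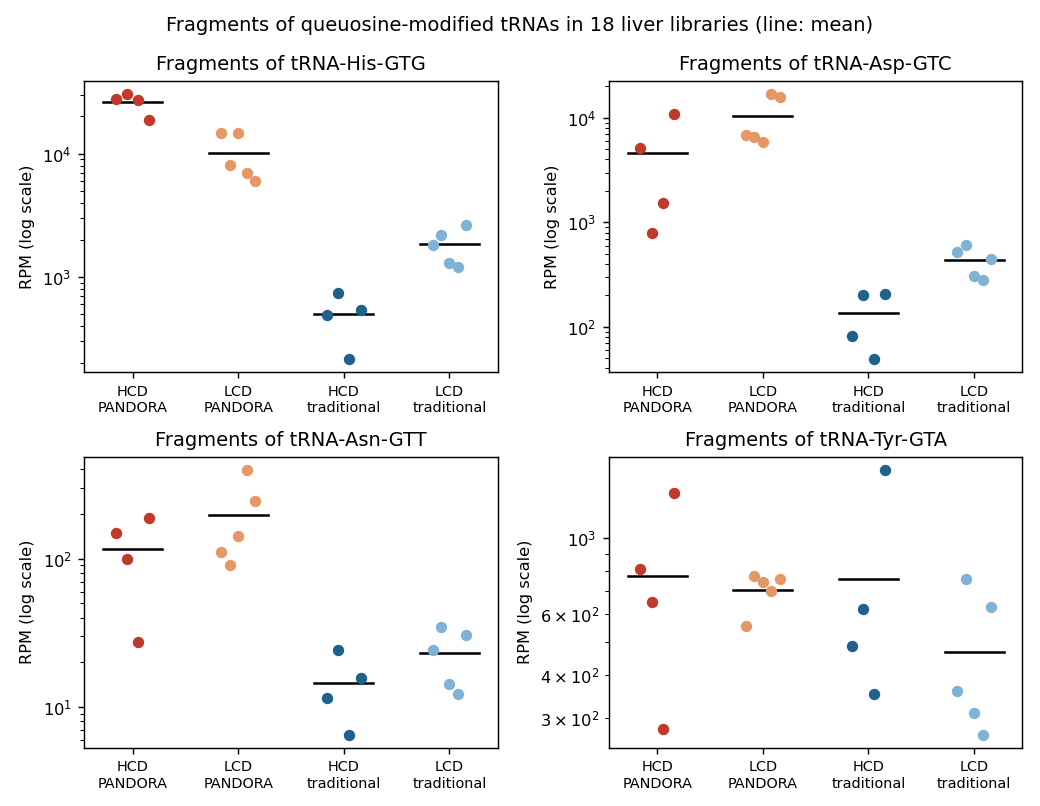
RPM of the 4 tsRNAs (y axes, log scale) in each library, grouped on the x axis by diet and method. Points are mice and lines are group means. For tsRNA-His-GTG the HCD points lie above all LCD points in PANDORA-seq and below all of them in traditional-seq.

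tsRNA-His-GTG stood at opposite sides of the LCD group in the 2 methods. By PANDORA-seq it had 27845, 30245, 27140 and 18593 RPM in HCD-fed mice 15 to 18, against 14579, 8089, 14713, 6914 and 5986 RPM in LCD-fed mice 1 to 5. By traditional-seq it had 495, 744, 217 and 539 RPM in HCD-fed mice, against 1810, 2180, 1307, 1207 and 2651 RPM in LCD-fed mice. The groups did not overlap in either method. The 4 HCD values were the highest by PANDORA-seq and the lowest by traditional-seq. The share of all RNAs separated by diet in this way was not counted. By traditional-seq the total RPM of cytosolic tRNA fragments did not overlap either, at 6202 to 21396 in HCD-fed and 59775 to 77081 in LCD-fed mice. On RPM as deposited, the median log2 fold change of the cytosolic anticodons was -0.13 by PANDORA-seq and -0.78 by traditional-seq. On that scale 29 of 244 RNAs tested were higher and 28 lower by PANDORA-seq (limma adjusted p under 0.05). By traditional-seq 3 of 349 were higher and 57 lower.

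tsRNA-Asp-GTC was lower on average in HCD-fed mice by both methods, with a wide spread. By PANDORA-seq it had 5178, 789, 1540 and 10839 RPM in HCD-fed mice 15 to 18, against 6862, 6544, 5844, 16850 and 15904 RPM in LCD-fed mice 1 to 5. Only HCD-fed mouse 18 lay within the LCD range. By traditional-seq it had 81.9, 203.9, 49.4 and 204.2 RPM in HCD-fed mice, against 522.7, 608.4, 306.9, 280.8 and 441.5 RPM in LCD-fed mice. There all 4 HCD values were below the lowest LCD value, and the total RPM of cytosolic tRNA fragments was separated in the same way.

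tsRNA-Asn-GTT was scarce and overlapped between the diets. By PANDORA-seq it had 149.6, 98.8, 27.3 and 188.2 RPM in HCD-fed mice, against 110.9, 91.3, 141.5, 397.1 and 243.5 RPM in LCD-fed mice. By traditional-seq it had 11.5, 24.2, 6.504 and 15.7 RPM in HCD-fed mice, against 24.3, 34.5, 14.3, 12.3 and 30.6 RPM in LCD-fed mice. HCD-fed mouse 17 was lowest in both methods.

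tsRNA-Tyr-GTA was the only member whose ranges overlapped between the methods in both diets. By PANDORA-seq it had 814.8, 654.0, 278.2 and 1354 RPM in HCD-fed mice, against 556.6, 778.3, 743.7, 701.2 and 760.7 RPM in LCD-fed mice. By traditional-seq it had 486.1, 623.9, 351.5 and 1577 RPM in HCD-fed mice, against 358.5, 761.7, 309.6, 268.7 and 631.2 RPM in LCD-fed mice. The diets overlapped in both methods, and HCD-fed mouse 18 was highest and mouse 17 lowest of the HCD-fed mice in both.

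As a share of all cytosolic tRNA fragments, the sum of the 4 tsRNAs was larger in HCD-fed mice by both methods, but not every member was. By PANDORA-seq their sum was 22.3% to 31.2% of cytosolic tRNA fragment reads in HCD-fed mice and 8.81% to 12.5% in LCD-fed mice. By traditional-seq it was 7.46% to 12.5% in HCD-fed mice and 2.87% to 5.05% in LCD-fed mice. Neither pair of ranges overlapped. Scaled to cytosolic tRNA reads, the median log2 fold change of all cytosolic anticodons by diet was also positive. It was 0.55 by PANDORA-seq and 1.53 by traditional-seq. By PANDORA-seq, His (2.13) lay above the median, Tyr (0.62) near it, and Asn (-0.17) and Asp (-1.01) below it. By traditional-seq, His (0.41) and Asp (0.49) lay below the median, Asn (1.54) near it and Tyr (2.93) above it. The largest member of the sum differed with diet and mouse as well as with method. In HCD PANDORA-seq libraries tsRNA-His-GTG made up 60.03% to 95.1% of the 4-member sum, against 26.1% to 68.6% in LCD PANDORA-seq libraries. In LCD PANDORA-seq libraries tsRNA-Asp-GTC was the largest member in mice 4 and 5 (67.8% and 69.5%), and tsRNA-His-GTG in mice 1, 2 and 3. In traditional-seq tsRNA-Tyr-GTA made up 39.1% to 67.5% of the sum in HCD-fed mice, against 13.2% to 21.3% in LCD-fed mice. There tsRNA-His-GTG made up 23.1% to 46.6% in HCD-fed mice and 60.8% to 70.6% in LCD-fed mice. Of the HCD-fed mice, tsRNA-His-GTG was the largest member in 15 and 16, and tsRNA-Tyr-GTA in 17 and 18. tsRNA-His-GTG alone was 14.01% to 29.7% of cytosolic tRNA fragment reads by PANDORA-seq in HCD-fed mice, against 2.45% to 8.19% in LCD-fed mice. By traditional-seq its share was 2.88% to 3.90% in HCD-fed mice and 1.93% to 3.57% in LCD-fed mice, with overlap. The total RPM of cytosolic tRNA fragments by traditional-seq was 6202 to 21396 in HCD-fed mice and 59775 to 77081 in LCD-fed mice. The part of this total in the lower RPM of tsRNA-His-GTG was not tested.

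**Figure D2:**
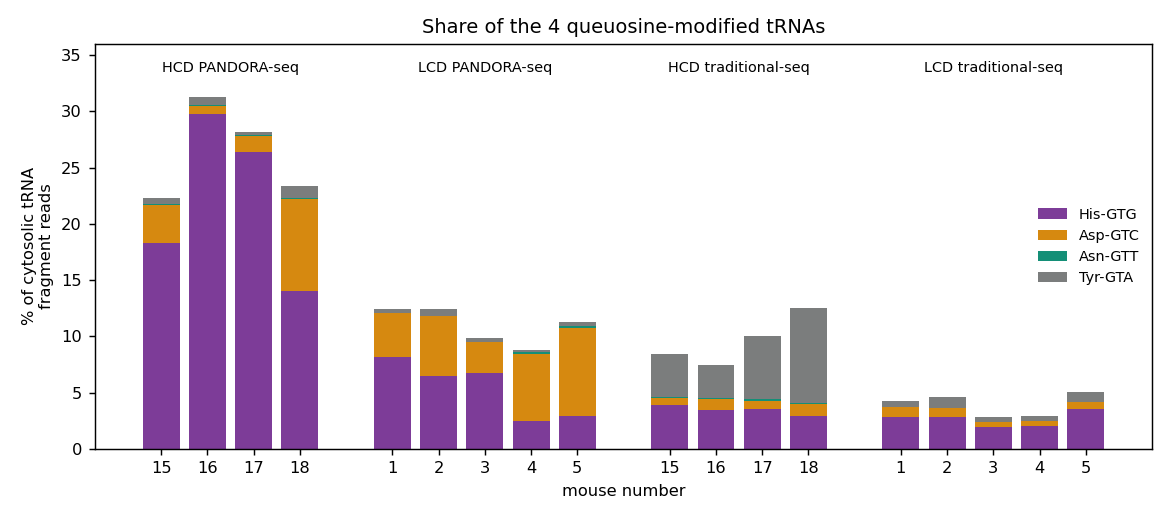
Share of cytosolic tRNA fragment reads held by the 4 tsRNAs (y axis, percent) in each library, with the mouse number on the x axis and a stacked bar per library. tsRNA-His-GTG fills 14.01% to 29.7% in HCD PANDORA-seq libraries, and tsRNA-Tyr-GTA the largest part of the bar in 2 of the 4 HCD traditional-seq libraries.

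The comparison of methods asks which fragments traditional-seq leaves under-read because of their ends or methyl groups. In HCD-fed mice, 3 of the 4 tsRNAs were higher by PANDORA-seq and tsRNA-Tyr-GTA was not called. Of all 312 RNAs tested there, 18.3% were called higher by PANDORA-seq, and of the other 47 cytosolic anticodons 76.6%. In LCD-fed mice all 4 were called higher, where 21.8% of all 325 RNAs tested and 83.0% of the other cytosolic anticodons were. The members' counts were thus near the share of cytosolic tRNAs as a class. All 4 passed the filter of 1 RPM in every comparison given here.

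tsRNA-His-GTG was higher by PANDORA-seq by 5.81 on the log2 scale in HCD-fed mice (SE 0.45, limma adjusted p = 1.79e-12) and by 2.42 in LCD-fed mice (SE 0.32, limma adjusted p = 1.87e-06). Within each mouse, the ratio of its PANDORA-seq to its traditional-seq RPM was 34.5 to 125 in HCD-fed mice and 2.26 to 11.3 in LCD-fed mice. These ratios did not overlap between the diets, and how many other RNAs were separated in this way was not counted. Its place among 51 cytosolic anticodons by this gain was 3rd from the top in HCD-fed mice and 27th in LCD-fed mice.

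tsRNA-Asp-GTC was higher by PANDORA-seq by 4.64 on the log2 scale in HCD-fed mice (SE 0.61, limma adjusted p = 2.80e-08) and by 4.49 in LCD-fed mice (SE 0.36, limma adjusted p = 2.99e-09). Its ratio per mouse was 3.87 to 63.2 in HCD-fed mice, with mouse 16 the lowest, and 10.8 to 60.01 in LCD-fed mice. tsRNA-Asn-GTT was higher by PANDORA-seq by 2.75 in HCD-fed mice (SE 0.62, limma adjusted p = 0.000141) and by 2.92 in LCD-fed mice (SE 0.43, limma adjusted p = 5.40e-06). Its ratio per mouse was 4.09 to 13.0 in HCD-fed mice and 2.65 to 32.3 in LCD-fed mice. For both tsRNAs the ratios of the diets overlapped.

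tsRNA-Tyr-GTA differed by 0.06 on the log2 scale in HCD-fed mice (SE 0.52, limma adjusted p = 0.915) and by 0.72 in LCD-fed mice (SE 0.32, limma adjusted p = 0.0451). It stood 49th of 51 cytosolic anticodons by gain in HCD-fed mice and 42nd in LCD-fed mice. Its ratio per mouse was 0.792 to 1.68 in HCD-fed mice and 1.02 to 2.61 in LCD-fed mice. The call in LCD-fed mice was lost without LCD-fed mouse 1, 3, 4 or 5 (log2 difference 0.55 to 0.83, limma adjusted p 0.0523 to 0.168) and with no filter on low values (limma adjusted p = 0.105). Other scalings moved the values up. In HCD-fed mice the difference was 0.91 with TMM (limma adjusted p = 0.0842) and 3.06 when scaled to miRNA reads, which passed (limma adjusted p = 0.000692). In LCD-fed mice it was 2.12 with TMM (limma adjusted p = 1.12e-05) and 5.36 when scaled to miRNA reads (limma adjusted p = 2.50e-10).

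The size of the gain of the other 3 tsRNAs depended on the scaling too, since RPM is a share of each library and miRNAs took far less of the PANDORA-seq libraries. Scaled to miRNA reads, the log2 difference between methods in HCD-fed mice was 8.80 for tsRNA-His-GTG, 7.61 for tsRNA-Asp-GTC and 5.54 for tsRNA-Asn-GTT. In LCD-fed mice it was 7.08, 9.14 and 7.32 in the same order, and TMM gave 3.82 for tsRNA-His-GTG.

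**Figure D3:**
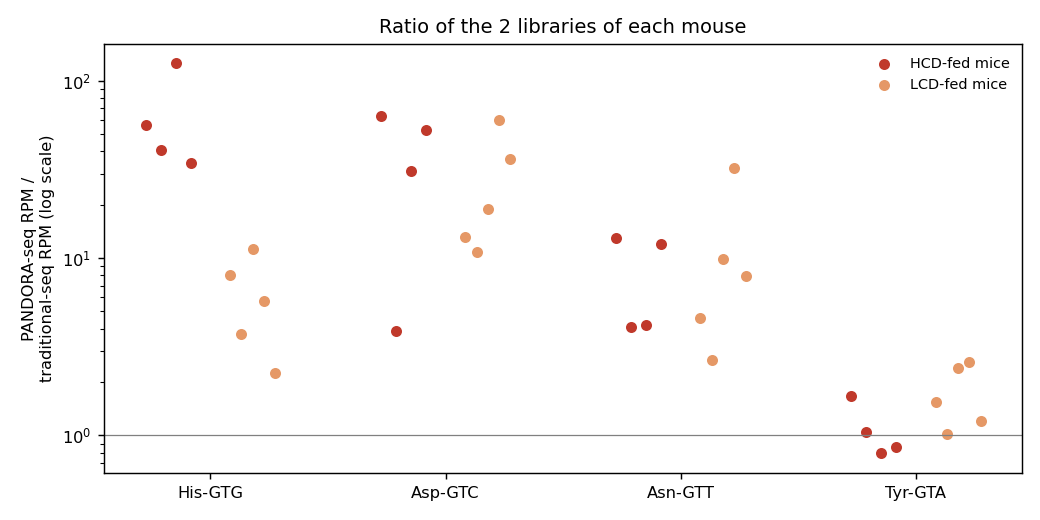
Ratio of PANDORA-seq RPM to traditional-seq RPM of the same mouse (y axis, log scale) for each tsRNA (x axis), with HCD-fed mice left of LCD-fed mice. For tsRNA-His-GTG the HCD-fed mice lie at 34.5 to 125 and the LCD-fed mice at 2.26 to 11.3. For tsRNA-Tyr-GTA the HCD-fed mice lie at 0.792 to 1.68 and the LCD-fed mice at 1.02 to 2.61.

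Ratios of 2 of the tsRNAs within a library do not depend on how libraries are scaled. For each of the 6 pairs and 2 diets the methods were compared by a two-sided exact permutation test, with adjustment over these 12 ratios, of which only 3 per library are independent. All 3 ratios to tsRNA-Tyr-GTA were higher by PANDORA-seq in both diets. The log2 ratio of His to Tyr averaged 5.25 ± 1.17 by PANDORA-seq and -0.49 ± 0.81 by traditional-seq in mice on the HCD (n = 4 each with SD, exact permutation p = 0.0286, adjusted 0.0381). In LCD-fed mice it averaged 3.73 ± 0.74 by PANDORA-seq and 2.03 ± 0.31 by traditional-seq (SD, n = 5 each, exact permutation p = 0.00794, adjusted 0.0190). The ratio of His to Asp was lower by PANDORA-seq in LCD-fed mice, at 0.01 ± 1.29 against 2.08 ± 0.32 by traditional-seq (SD, n = 5 each, exact permutation p = 0.00794, adjusted 0.0190). In HCD-fed mice this ratio was 3.15 ± 1.96 by PANDORA-seq and 1.999 ± 0.50 by traditional-seq (SD, n = 4 each, exact permutation p = 0.343, adjusted 0.374). Of the 12 ratios 9 passed. By an exact sign-flip test within mice 0 passed, and its smallest possible p is 0.125 for 4 mice and 0.0625 for 5. Without any 1 HCD-fed mouse (15, 16, 17 or 18) 5 passed, all in LCD-fed mice. The HCD libraries left are then too few for any ratio of that diet to pass, so this drop says nothing about the mouse left out.

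The comparison of diets asks which hepatic small RNAs respond to cholesterol feeding, and was made in each method on RPM scaled by TMM, a trimmed mean of the ratios between libraries. By PANDORA-seq, 1 of the 4 tsRNAs (His) rose and 1 (Asp) fell, where 7.79% of all 244 RNAs tested were called higher and 15.6% lower in HCD-fed mice. Of the other 47 cytosolic anticodons, 4.26% were called higher and 34% lower. By traditional-seq, 1 (Tyr) rose and 1 (His) fell, where 3.44% of 349 RNAs tested were called higher and 6.30% lower. Of the other 45 cytosolic anticodons tested there, 13.3% were called higher and 17.8% lower. The median log2 fold change of the 4 was -0.62 by PANDORA-seq, beside -0.12 over all RNAs tested and -0.29 over the other cytosolic anticodons. By traditional-seq it was -0.64, beside 0.06 over all RNAs tested and -0.16 over the other cytosolic anticodons.

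The scaling weighed heavily on these calls. By PANDORA-seq the median of all RNAs was 0.03 with RPM as deposited, -1.27 when scaled to miRNA reads and 0.61 when scaled to cytosolic tRNA reads. The calls were 19 higher and 38 lower with TMM, 29 and 28 with RPM as deposited, 0 and 113 with miRNA reads, and 85 and 9 with cytosolic tRNA reads. By traditional-seq the same medians were -0.53, -0.56 and 1.55. There the calls were 12 higher and 22 lower with TMM, 3 and 57 with RPM as deposited, 3 and 49 with miRNA reads, and 270 and 6 with cytosolic tRNA reads.

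tsRNA-His-GTG rose in HCD-fed mice by PANDORA-seq, by 1.28 on the log2 scale (SE 0.39, limma adjusted p = 0.0338). Scaled to miRNA reads, its difference was -0.25 (limma adjusted p = 0.705), beside the median of all RNAs of -1.27 under that scaling. Scaled to cytosolic tRNA reads, it was 2.13 (limma adjusted p = 0.00188). It was the 3rd highest of 51 cytosolic anticodons. The call was lost with no filter on low values (limma adjusted p = 0.111) and without LCD-fed mouse 4 or 5 or HCD-fed mouse 15, 16 or 17, where the log2 fold change was 1.07 to 1.27 and the limma adjusted p 0.0577 to 0.107. By traditional-seq tsRNA-His-GTG fell in HCD-fed mice, with a log2 fold change of -1.30 (SE 0.33, limma adjusted p = 0.0234). Scaled to cytosolic tRNA reads it was 0.41 (limma adjusted p = 0.263), and the call was lost with no filter (limma adjusted p = 0.0770) and without LCD-fed mouse 5 (log2 fold change -1.28, limma adjusted p = 0.0515). Scaled to miRNA reads it was -1.98 (limma adjusted p = 0.00431).

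The diet effect on tsRNA-His-GTG differed between the methods. The effect in PANDORA-seq minus that in traditional-seq was 3.15 on the log2 scale (SE 0.58, limma adjusted p = 0.00175, TMM over all 18 libraries). This was the highest value of all 365 RNAs tested, of which 2.74% were called in each direction. Of the other 47 cytosolic anticodons, 4.26% were called higher and 8.51% lower, with a highest value of 2.99. With the mouse as a replicate block the limma adjusted p of tsRNA-His-GTG was 0.000892. Scaled to miRNA reads the difference was 1.72 (limma adjusted p = 0.110). The call was lost without LCD-fed mouse 2, 4 or 5 or HCD-fed mouse 16, where the difference was 2.70 to 3.05 and the limma adjusted p 0.106 to 0.162. For tsRNA-Asp-GTC the same difference was -0.09 (SE 0.81, limma adjusted p = 0.971), for tsRNA-Asn-GTT -0.41 (SE 0.73, limma adjusted p = 0.847) and for tsRNA-Tyr-GTA -0.89 (SE 0.54, limma adjusted p = 0.346). These 3 differences did not pass the test and their standard errors leave room for effects of either sign.

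tsRNA-Asp-GTC fell in HCD-fed mice by PANDORA-seq, its log2 fold change being -1.86 (SE 0.57, limma adjusted p = 0.0327), the 48th of 51 cytosolic anticodons. Scaled to cytosolic tRNA reads it was -1.01 (limma adjusted p = 0.162), with all 18 libraries in 1 fit -1.53 (limma adjusted p = 0.0737), and with no filter the adjusted p was 0.134. Scaled to miRNA reads it was -3.40 (limma adjusted p = 0.000416). The call was also lost without LCD-fed mouse 4 or 5 or HCD-fed mouse 16 or 17, where the log2 fold change was -1.72 to -1.26 and the limma adjusted p 0.0577 to 0.0960. By traditional-seq the log2 fold change was -1.21 (SE 0.37, limma adjusted p = 0.0501), which did not pass. It passed with RPM as deposited (-1.85, limma adjusted p = 0.00698), when scaled to miRNA reads (-1.89, limma adjusted p = 0.0162) and without HCD-fed mouse 16 (-1.61, limma adjusted p = 0.0111), and was 0.49 when scaled to cytosolic tRNA reads (limma adjusted p = 0.205).

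tsRNA-Asn-GTT was not called by diet in either method. Its log2 fold change was -1.01 by PANDORA-seq (SE 0.52, limma adjusted p = 0.185) and -0.07 by traditional-seq (SE 0.33, limma adjusted p = 0.956). Scaled to miRNA reads it fell by PANDORA-seq (-2.51, limma adjusted p = 0.00620), and scaled to cytosolic tRNA reads it rose by traditional-seq (1.54, limma adjusted p = 0.00184), where the median of all RNAs was 1.55.

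tsRNA-Tyr-GTA rose in HCD-fed mice by traditional-seq, by 1.23 on the log2 scale (SE 0.34, limma adjusted p = 0.0360), and its log2 fold change by PANDORA-seq was -0.23 (SE 0.36, limma adjusted p = 0.658). The rise was lost with RPM as deposited (0.58, limma adjusted p = 0.390), when scaled to miRNA reads (0.54, limma adjusted p = 0.478), with all 18 libraries in 1 fit (0.99, limma adjusted p = 0.120) and with no filter (limma adjusted p = 0.108). Scaled to cytosolic tRNA reads it was 2.93 (limma adjusted p = 4.52e-05). It was lost too without LCD-fed mouse 1, 3, 4 or 5 or HCD-fed mouse 16, 17 or 18, where the log2 fold change was 0.80 to 1.31 and the limma adjusted p 0.0570 to 0.0984. By PANDORA-seq it fell when scaled to miRNA reads (-1.77, limma adjusted p = 0.0302) and had a positive value when scaled to cytosolic tRNA reads (0.62, limma adjusted p = 0.268).

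**Figure D4:**
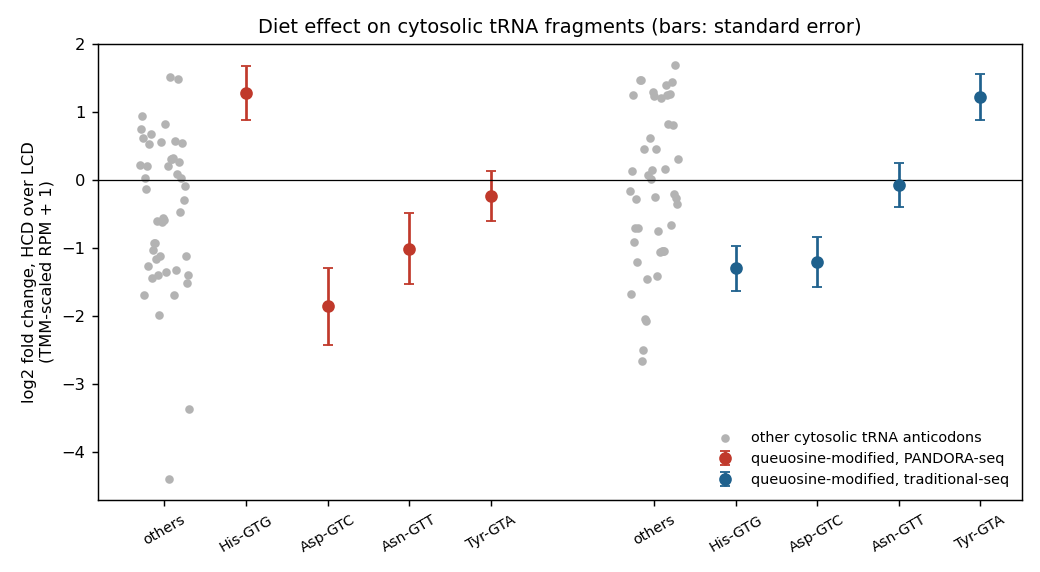
Log2 fold change of HCD-fed over LCD-fed mice (y axis, RPM scaled by TMM) for the 4 tsRNAs (colored points, bars are standard errors) and the other cytosolic anticodons (gray points), by method along the x axis. tsRNA-His-GTG lies at 1.28 by PANDORA-seq and -1.30 by traditional-seq, and tsRNA-Asp-GTC below 0 in both.

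The balance among the 4 tsRNAs also differed by diet, which no scaling can alter. Of 12 ratios (6 pairs in each of 2 methods) 6 passed the exact permutation test after adjustment over the 12, 5 of them in traditional-seq. There the log2 ratio of His to Tyr averaged -0.49 ± 0.81 in HCD-fed mice (SD, n = 4) and 2.03 ± 0.31 in LCD-fed mice (SD, n = 5), without overlap (exact permutation p = 0.00794, adjusted 0.0190). The ratio of Asp to Tyr averaged -2.49 ± 0.61 in HCD-fed mice and -0.05 ± 0.41 in LCD-fed mice (exact permutation p = 0.00794, adjusted 0.0190). The ratios of His to Asn, Asp to Asn and Asn to Tyr were lower in HCD-fed mice as well, by log2 differences of -1.22, -1.14 and -1.30, with the same p values. The ratio of His to Asp was 1.999 ± 0.50 in HCD-fed mice and 2.08 ± 0.32 in LCD-fed mice, a difference of -0.08 (exact permutation p = 0.833, adjusted 0.833).

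In PANDORA-seq the 3 ratios of tsRNA-His-GTG to the others were higher on average in HCD-fed mice and did not pass after adjustment. The log2 ratio of His to Asp averaged 3.15 ± 1.96 in HCD-fed mice (SD, n = 4) and 0.01 ± 1.29 in LCD-fed mice (SD, n = 5), a difference of 3.15 (exact permutation p = 0.0317, adjusted 0.0544). HCD-fed mouse 18 had the lowest of the HCD ratios, at 0.78. The ratio of Asp to Tyr was lower in HCD-fed mice, at 2.10 ± 1.24 against 3.73 ± 0.74 in LCD-fed mice (exact permutation p = 0.0238, adjusted 0.0476). The ratios of His to Asn and of His to Tyr had differences of 2.31 and 1.52 (exact permutation p = 0.0476 each, adjusted 0.0635). Without LCD-fed mouse 1, 2, 3, 4 or 5, 0 of the 12 ratios passed, where the smallest possible p of 4 against 4 is 0.0286. At that p the 5 ratios that passed in traditional-seq cannot by themselves pass the adjustment over 12. The drop to 0 therefore cannot be laid to the LCD-fed mouse left out. Without HCD-fed mouse 15, 16 or 17 it was 5 of 12, and without HCD-fed mouse 18 it was 9.

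**Figure D5:**
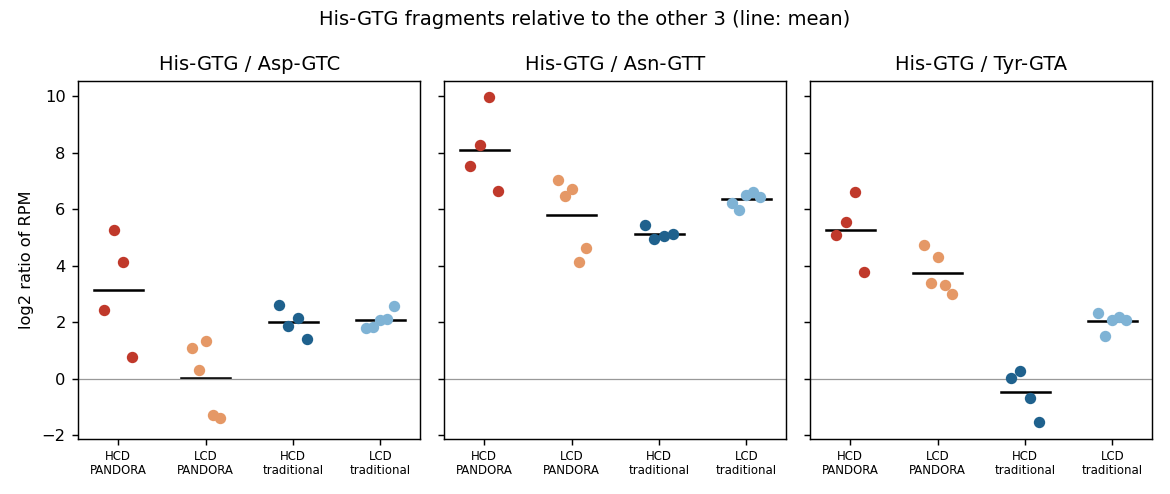
Log2 ratio of tsRNA-His-GTG RPM to that of the other 3 tsRNAs (y axis) in each library, by diet and method along the x axis. Lines are means. The ratio to tsRNA-Tyr-GTA averages 5.25 in HCD-fed and 3.73 in LCD-fed mice by PANDORA-seq, and -0.49 in HCD-fed and 2.03 in LCD-fed mice by traditional-seq.

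Cytosolic tRNAs with guanosine at the wobble position that carry no queuosine gave a comparison set of 4 (Gly-GCC, Cys-GCA, Phe-GAA and Ser-GCT). By diet 1 of them rose and 2 fell in PANDORA-seq, beside 7.79% of all RNAs tested called higher and 15.6% lower. In traditional-seq 1 rose and 1 fell, beside 3.44% called higher and 6.30% lower. Of all cytosolic anticodons tested, 5.88% were called higher and 33.3% lower in PANDORA-seq, and 14.3% and 18.4% in traditional-seq. The set was not tested against the queuosine-modified tsRNAs. tsRNA-Gly-GCC, the most abundant of the set, had a log2 fold change of -1.17 by PANDORA-seq (SE 0.33, limma adjusted p = 0.0246) and -2.08 by traditional-seq (SE 0.42, limma adjusted p = 0.00750). Its effects in PANDORA-seq and traditional-seq differed by 1.47 (limma adjusted p = 0.134), and 0 of the 4 passed this test by limma (1 of 4 at an unadjusted p under 0.05).

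Fragments of the mitochondrial tRNAs of the same 4 amino acids were compared by diet in the same fits. By PANDORA-seq mitochondrial tsRNA-Tyr-GTA fell in HCD-fed mice (log2 fold change -1.49, SE 0.51, limma adjusted p = 0.0470). Its value was near that of the class, since the median of all 22 mitochondrial tRNAs was -1.35 and 45.5% of them were called lower. By traditional-seq 22.7% of the 22 were called lower. Mitochondrial tsRNA-Asn-GTT had 1 to 16 inferred reads in HCD-fed mice and 18 to 46 in LCD-fed mice, and mitochondrial tsRNA-Asp-GTC 0 to 17 in HCD-fed mice and 17 to 84 in LCD-fed mice. Both passed the filter through the LCD libraries, with 2 of 4 HCD libraries at 1 RPM or more, so no weight is put on their calls. By traditional-seq none was called by limma (0 of 4, also at an unadjusted p under 0.05, with a lowest adjusted p of 0.267). Mitochondrial tsRNA-His-GTG, the most abundant of them, had 877 to 1646 RPM in HCD-fed mice and 778 to 2282 RPM in LCD-fed mice by PANDORA-seq. Its log2 fold change was -0.32 (SE 0.38, limma adjusted p = 0.559), where that of cytosolic tsRNA-His-GTG was 1.28. By traditional-seq it was 0.06 (SE 0.44, limma adjusted p = 0.964), where that of cytosolic tsRNA-His-GTG was -1.30.

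Across the 18 libraries, the 4 tsRNAs varied with different partners once group means were removed. Deviations of tsRNA-Asn-GTT correlated with those of tsRNA-Asp-GTC (Pearson r = 0.75) and of tsRNA-Tyr-GTA (r = 0.71), and those of tsRNA-Asp-GTC with tsRNA-Tyr-GTA (r = 0.65). Those of tsRNA-His-GTG had r = -0.01 with tsRNA-Asp-GTC, 0.15 with tsRNA-Asn-GTT and 0.26 with tsRNA-Tyr-GTA. Among 64 other tRNA families, the nearest to tsRNA-Asn-GTT were Lys-CTT (r = 0.90), Ile-AAT (r = 0.90) and Arg-TCG (r = 0.86), and the nearest to tsRNA-Asp-GTC were Arg-TCG (r = 0.82), Lys-CTT (r = 0.81) and SeC-TCA (r = 0.80). The nearest to tsRNA-Tyr-GTA were Gln-CTG (r = 0.93), Gln-TTG (r = 0.91) and Ile-TAT (r = 0.82). For tsRNA-His-GTG the highest were lower, at 0.58 for mitochondrial Gln-TTG, 0.55 for mitochondrial Cys-GCA and 0.52 for Gly-GCC. These are descriptions over 18 libraries from 9 mice, and values within a library share its depth and total.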

How the data were processed

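Liver small RNA of 9 mice was sequenced by 2 methods. Per the labels and the methods, the authors assigned reads with SPORTS1.1, allowing 1 mismatch, to mm10 references and deposited a single table of RPM values, which are reads scaled to the read total of each library, with 1234 RNAs. Empty cells (11673) were read as 0. No 2 libraries were identical (0 pairs), and 0 value columns lacked a sample. For reads of near-identical RNAs, the counting rule was not given in the sources read here. Of the values under 3 RPM, 67.6% to 81.5% per library were whole multiples of 1 read within 0.02 reads, too few to recover counts, and 1 read was worth 0.0392 to 0.517 RPM. These steps gave the inferred read totals.

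Groups came from the labels. RNAs were compared by limma 3.58.1 (R 4.3.3) with a trend of variance on mean, applied to log2(RPM + 1) of the RNAs that reached 1 RPM in as many libraries as the smaller group had, with Benjamini-Hochberg adjustment over all of them and a threshold of 0.05. Methods were compared on RPM as deposited, and diets on RPM scaled by TMM from own code (30% trimmed by fold, 5% by level). Fold changes on this scale understate those of rare RNAs. For ratios the test was an exact two-sided permutation of the libraries. Named were the 4 tsRNAs, examples of the highest level in 2 comparison lists, and the 3 nearest tRNA families. The members and lists were chosen with earlier results of these data known. Replicates are separate mice. The methods state that both libraries of a mouse came from the same eluted RNA, which pairs them. The deviations of a mouse's libraries correlated with r from 0.0925 to 0.497 over 171 RNAs, over 0.1 in 8 of 9 mice. In 5 of 9 mice the best correlated traditional-seq library of the same diet was the mouse's own. Alternatives were the scaling, pseudocount, filter, fit over all libraries, mouse as a replicate block, and leaving out each mouse. Tests were checked on simulated data. Other steps used Python 3.11.15, numpy 2.4.6, pandas 2.3.3 and matplotlib 3.10.9.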

Additional observations from a re-analysis of the deposited data

Results flagged for a closer look

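The diet effect on tsRNA-His-GTG differed between the methods by the test of the difference itself. The effect in PANDORA-seq minus that in traditional-seq was 3.15 on the log2 scale (SE 0.58, limma adjusted p = 0.00175). The call was lost when scaled to miRNA reads (1.72, limma adjusted p = 0.110) and without LCD-fed mouse 2, 4 or 5 or HCD-fed mouse 16 (limma adjusted p 0.106 to 0.162). The 4 HCD libraries lay above all 5 LCD libraries by PANDORA-seq and below all 5 by traditional-seq. How many other RNAs were separated in this way was not counted. Cytosolic tRNA fragments as a class took 0.647% to 2.33% of listed reads in HCD-fed mice and 6.24% to 8.13% in LCD-fed mice by traditional-seq. Their part in the difference was not tested. None of the 16 sets of a tsRNA in a group (0 of 16) held a mouse far from the others by Dixon's test.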

How the results depend on the processing

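The direction of tsRNA-His-GTG, tsRNA-Asp-GTC and tsRNA-Asn-GTT between methods held under all alternatives run, with an adjusted p under 0.05 in each, but not the size, which ran over all alternatives from 5.42 to 8.80 for His, 4.20 to 7.61 for Asp and 2.17 to 5.54 for Asn in HCD-fed mice and from 2.15 to 7.08, 4.14 to 9.14 and 2.42 to 7.32 in LCD-fed mice. For tsRNA-Tyr-GTA in HCD-fed mice, scaling to miRNA reads gave 3.06, which passed, and leaving out a mouse -0.16 to 0.20. In LCD-fed mice the difference of 0.72 lost its call with no filter, was 2.12 with TMM and 5.36 with miRNA reads, and leaving out a mouse gave 0.55 to 0.89. With the mouse as a replicate block no call on the 4 tsRNAs changed in the 3 comparisons that allow it (tsRNA-Tyr-GTA in LCD-fed mice 0.72, adjusted p = 0.0391), while ratios by method passed in 0 of 12 by the paired sign-flip test, whose smallest p is 0.0625.

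By diet in PANDORA-seq, scaling to miRNA reads gave -0.25 for His, -2.51 for Asn, -3.40 for Asp and -1.77 for Tyr. Scaling to cytosolic tRNA reads gave 2.13 for His, -0.17 for Asn, -1.01 for Asp and 0.62 for Tyr, and 1 fit of all libraries -1.53 for Asp and 0.093 for Tyr. With no filter His (1.28) and Asp (-1.86) kept their values and lost their calls. Leaving out a mouse gave 1.07 to 1.53 for His, -2.40 to -1.26 for Asp and -0.48 to 0.028 for Tyr, positive only without HCD-fed mouse 17. By diet in traditional-seq, scaling to cytosolic tRNA reads gave 0.41 for His, 1.54 for Asn, 0.49 for Asp and 2.93 for Tyr. RPM as deposited gave -1.85 for Asp and 0.58 for Tyr, miRNA reads -1.89 and 0.54, and 1 fit of all libraries 0.99 for Tyr. Asp passed with a pseudocount of 10 RPM (-1.15) and a filter at 10 RPM (-1.21). With no filter His (-1.30) and Tyr (1.23) lost their calls. Leaving out a mouse gave -1.65 to -1.14 for His, -0.47 to 0.054 for Asn (0.020 without HCD-fed mouse 15, 0.054 without 17), -1.61 to -1.01 for Asp and 0.80 to 1.39 for Tyr.

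For the difference of diet effects, scaling to miRNA reads gave 1.72 for His (adjusted p = 0.110, the call lost) and RPM as deposited 0.15 for Asp. Leaving out a mouse gave 2.70 to 3.48 for His, with the call lost without LCD-fed mouse 2, 4 or 5 or HCD-fed mouse 16, and -0.61 to 0.56 for Asp, positive without HCD-fed mouse 16 (0.56). Leaving out a mouse moved the ratios that passed between 0 and 9 of 12 by diet and between 5 and 9 by method. By method the count of 5 came on leaving out an HCD-fed mouse, when too few libraries remain for any HCD ratio to pass. By diet the count of 0 came on leaving out an LCD-fed mouse, when the smallest possible p rises to 0.0286. The log2 ratio of His to Asp by diet in traditional-seq was -0.28 to 0.12 on leaving out a mouse, with 0.042 without LCD-fed mouse 5 and 0.12 without HCD-fed mouse 18. All RNAs called by the difference test were 43 higher and 10 lower with RPM as deposited, 40 and 15 with the block, 0 and 13 with miRNA reads, 2 and 7 with no filter, and 10 and 10 in TMM-scaled RPM. With no filter the diet calls over all RNAs were 0 higher and 13 lower by PANDORA-seq (19 and 38 with it) and 4 and 6 by traditional-seq (12 and 22 with it). Why other calls moved was not tested. Depth limits tsRNA-Asn-GTT most, with 47 inferred reads in the shallowest library.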
